A study of Mus musculus with 9 samples.

Results

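The genes described here encode the MiT/TFE transcription factors Mitf, Tfe3, Tfeb and Tfec, the Rag GTPases Rraga, Rragc and Rragd, and folliculin (Flcn) with its partners Fnip1 and Fnip2. They were taken by gene symbol from the deposited count table, which lists 53342 genes. All 10 were among the 12511 genes with enough counts to test. The cells were bone-marrow-derived macrophages, which are differentiated in culture from the marrow of mice, here male and female wild-type C57BL/6J donors aged 8 to 12 weeks. There were 3 groups of 3 biological replicates: macrophages given Torin-2, an inhibitor of the mTOR kinase itself, macrophages given rapamycin, a partial inhibitor of mTOR complex 1, and macrophages given vehicle. Each treatment began 2 h before the cells received spinal cord homogenate at 1% weight per volume (10 mg/mL) for 24 h. All 9 libraries therefore come from cells that were given myelin-rich debris, and no group without homogenate was analysed here. How much debris the cells of each group took up was not measured in these libraries. The homogenate came from pooled spinal cords of C57BL/6 mice aged 8 to 20 weeks, so the culture models the uptake of cord debris outside an injured cord. Compound doses were not given in the sources used here.

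On the lysosome, a heterodimer of RagA or RagB with RagC or RagD recruits mTOR complex 1 (mTORC1) when amino acids are plentiful. Folliculin bound to FNIP1 or FNIP2 switches RagC or RagD into the form that presents the MiT/TFE factors to mTORC1. Phosphorylated factors are held in the cytoplasm by 14-3-3 proteins, and when mTORC1 is inactive they enter the nucleus and bind E-box motifs at genes of lysosomes, autophagy and, in a feedback loop known from other cells, Rragd, Flcn and Fnip2. In macrophages these factors are known for raising lysosomal capacity after phagocytosis. The libraries measured transcripts, so neither phosphorylation nor nuclear entry was observed.

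Total counts ran from 16116666 to 24044329 per library. Levels are given as CPM, counts per 1000000 counts of the library after its total was scaled by TMM normalisation. The defining macrophage markers were present, with 12 of 12 tested. Their summed level was 15800 to 17600 CPM with Torin-2, 20900 to 22900 CPM with rapamycin and 14400 to 19000 CPM with vehicle. Lyz2 alone averaged 11700 CPM with Torin-2, 14900 CPM with rapamycin and 9750 CPM with vehicle, and the sum does not show how single markers moved. With Torin-2 4 of the 12 rose and 5 fell relative to vehicle, and with rapamycin 6 rose and 5 fell. The complement gene C1qa averaged 54.8 CPM with Torin-2, 171 CPM with rapamycin and 346 CPM with vehicle, and C1qb, C1qc, Adgre1 and the Fc receptor gene Fcgr1 also fell with both inhibitors. Ptprc averaged 373 CPM with Torin-2, 442 CPM with rapamycin and 250 CPM with vehicle, and Mertk, Spi1 and Csf1r also rose with both inhibitors. MITF is best known from melanocytes, mast cells and osteoclasts, so markers of these cells were read as well. Of 7 melanocyte markers 1 was tested, and Dct, Tyr and Tyrp1 had no count in any library. The sum of the 7 was 0.411 to 0.695 CPM with Torin-2, 0.301 to 1.29 CPM with rapamycin and 0.243 to 0.471 CPM with vehicle. Of 8 mast cell markers 0 were tested, and Cpa3, Mcpt4, Tpsb2, Cma1, Fcer1a and Ms4a2 had no count in any library. The sum of the 8 reached at most 0.164 CPM with Torin-2, 0.251 CPM with rapamycin and 0.0481 CPM with vehicle. Of 11 osteoclast markers 8 were tested, with Calcr and Oscar at 0. The sum of the 11 was 1550 to 1620 CPM with Torin-2, 634 to 785 CPM with rapamycin and 745 to 931 CPM with vehicle. Most of it came from Atp6v0d2 (958, 330 and 413 CPM in the same order) and Clcn7 (405, 267 and 303 CPM). Both are also in the list of lysosomal genes below, and the sum does not show how single markers moved. With Torin-2 6 of the 8 rose and 1, Acp5, fell relative to vehicle, and with rapamycin 3 rose and 4 fell. Markers of astrocytes, neurons, myelin and fibroblasts were also detected, with no measure of which source they came from. The sum of 7 astrocyte markers was 20.6 to 22.6 CPM with Torin-2, 32.4 to 50.7 CPM with rapamycin and 27.4 to 36.7 CPM with vehicle. That of 8 neuron markers was 6.08 to 7.71 CPM, 10.8 to 14.3 CPM and 8.47 to 12.9 CPM in the same order. The sum of 10 myelin markers was 350 to 407 CPM with Torin-2, 674 to 826 CPM with rapamycin and 451 to 581 CPM with vehicle, and that of 8 fibroblast markers was 3.16 to 9.79 CPM, 13.9 to 83.3 CPM and 10.1 to 40.3 CPM in the same order. The part of these other cells or of their RNA in the results was not tested, and in bulk RNA fewer cells of a type cannot be told apart from less RNA per cell.

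With Torin-2, transcripts of 3 of the 4 factors, of Rragd and of all 3 folliculin-complex genes rose relative to vehicle, Rraga fell, and Tfec and Rragc did not pass the test. Of the 10 genes, 8 passed at an adjusted p under 0.05 (edgeR quasi-likelihood test, Benjamini-Hochberg over all 12511 genes), against a background of 65.4% of all genes tested. The 7 that rose stand beside 32.5% of all genes, and the 1 that fell beside 32.9%. With rapamycin, 7 of the 10 genes passed relative to vehicle, against 50.8% of all genes. Mitf, Tfe3, Tfeb, Fnip1 and Fnip2 rose, making 5 against a background of 24.6%, and Rraga and Rragc fell, making 2 against 26.2%. Between the inhibitors, 10 of 10 passed against 48.2% of all genes, 9 higher with Torin-2 against a background of 24.2% and 1 lower against 24.1%, but 3 of these calls were lost when single libraries were left out, as given at each gene. The median log2 fold change of the 10 genes was 0.71 for Torin-2 against vehicle, 0.21 for rapamycin against vehicle and 0.48 for Torin-2 against rapamycin, beside -0.00781, 0.00107 and -0.000667 over all genes tested. These comparisons share libraries with each other, so their values are given side by side without a measure of likeness.

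**Figure D1:**
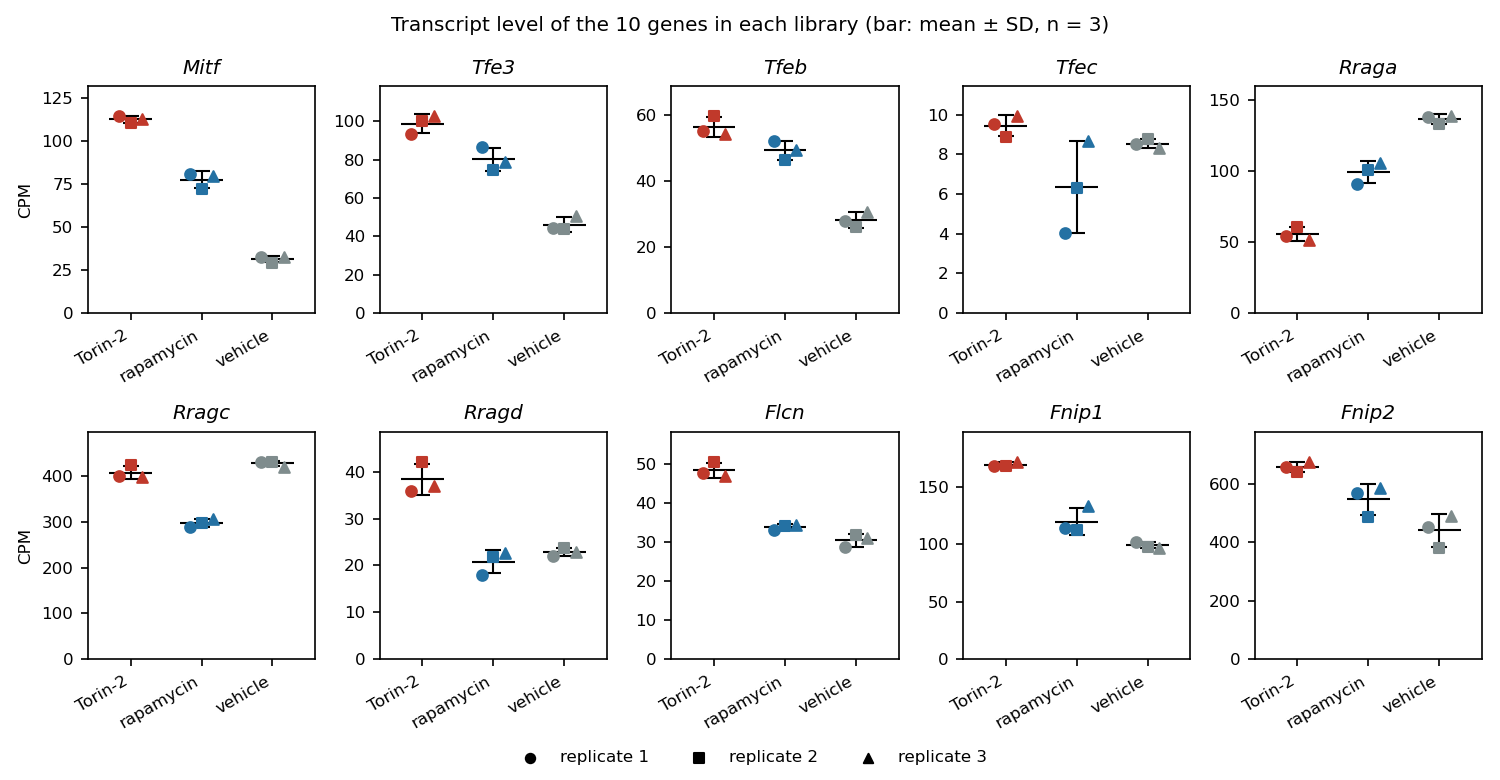
CPM of each of the 10 genes (vertical axes, each starting at 0) in every library, with Torin-2, rapamycin and vehicle from left to right; points are libraries with a marker shape per replicate number, and bars are the mean ± SD of 3 libraries. Mitf, Tfe3 and Tfeb lie above vehicle with both inhibitors, while Rraga lies below.

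Mitf, the factor named for microphthalmia and a driver of melanocyte and osteoclast genes, changed most among the factors. Its level was 115, 111 and 113 CPM in the Torin-2 libraries, 81.2, 72.0 and 79.8 CPM in the rapamycin libraries, and 32.8, 29.4 and 32.5 CPM in the vehicle libraries. The 3 groups did not overlap, with rapamycin between Torin-2 and vehicle. Torin-2 raised Mitf 3.59-fold relative to vehicle (log2 fold change 1.84 ± 0.07 SE, adjusted p = 8.84e-10, edgeR). With rapamycin the rise over vehicle was 2.46-fold (log2 1.30 ± 0.07, adjusted p = 7.56e-08, edgeR), and Torin-2 stood 1.46-fold above rapamycin (log2 0.54 ± 0.06, adjusted p = 2.65e-05, edgeR). The locus has many promoters that make tissue-specific MITF isoforms, with 8 annotated transcripts here, and a count per gene cannot tell them apart.

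Tfe3 and Tfeb, the well-studied regulators of lysosome and autophagy genes, rose with both inhibitors. Tfe3 had 93.5, 100 and 103 CPM with Torin-2, 86.6, 74.9 and 79.0 CPM with rapamycin, and 44.3, 43.7 and 50.5 CPM with vehicle. Each inhibitor library exceeded all vehicle libraries, and Torin-2 also stood clear of rapamycin. The rise was 2.15-fold with Torin-2 (log2 1.10 ± 0.08, adjusted p = 1.31e-07, edgeR) and 1.74-fold with rapamycin (log2 0.80 ± 0.08, adjusted p = 7.09e-06, edgeR). Torin-2 exceeded rapamycin by a log2 difference of 0.30 ± 0.07 (adjusted p = 0.00503, edgeR).

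Tfeb had 55.2, 59.9 and 54.4 CPM with Torin-2, 52.2, 46.4 and 49.5 CPM with rapamycin, and 28.0, 26.1 and 30.8 CPM with vehicle. Both inhibitor groups lay wholly above vehicle, and the lowest Torin-2 library was just above the highest rapamycin library. The rise over vehicle was 2.00-fold with Torin-2 (log2 1.00 ± 0.08, adjusted p = 3.25e-07, edgeR) and 1.74-fold with rapamycin (log2 0.80 ± 0.08, adjusted p = 7.36e-06, edgeR). Between the inhibitors the log2 difference was 0.20 ± 0.07 (adjusted p = 0.0482, edgeR). That call was lost without rapamycin replicate 2 or 3, any of the 3 Torin-2 replicates or vehicle replicate 1, at adjusted p-values of 0.0618 to 0.184, and under DESeq2 (0.0677), RLE size factors (0.0559), no low-count filter (0.0602) and a fit of only the 2 groups compared (0.054). With the replicate number as a block in the fit of all libraries, the Tfeb difference passed (adjusted p = 0.0332, edgeR).

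Tfec, the family member expressed mainly in macrophages and osteoclasts, was the least abundant, with 63 to 242 counts per library. It had 9.52, 8.87 and 9.95 CPM with Torin-2, 4.05, 6.30 and 8.67 CPM with rapamycin, and 8.52, 8.78 and 8.33 CPM with vehicle. Torin-2 and vehicle were close together without overlapping, and the rapamycin libraries were spread, with replicate 3 inside the vehicle range. Relative to vehicle the log2 difference was 0.15 (95% interval -0.28 to 0.57, adjusted p = 0.527, edgeR) with Torin-2 and -0.42 (-0.86 to 0.03, adjusted p = 0.107) with rapamycin. Without rapamycin replicate 3 the rapamycin difference was -0.70 and passed (adjusted p = 0.00633, edgeR). Torin-2 exceeded rapamycin by 0.56 ± 0.20 (adjusted p = 0.0368, edgeR), a call lost without rapamycin replicate 1 or 2, any Torin-2 replicate or vehicle replicate 1 (0.0524 to 0.0984), with a log2 difference of 0.34 without rapamycin replicate 1, and in a fit of only the 2 groups compared (0.0534). With the replicate number as a block it passed (adjusted p = 0.0149, edgeR), while rapamycin against vehicle did not (0.0522).

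**Figure D2:**
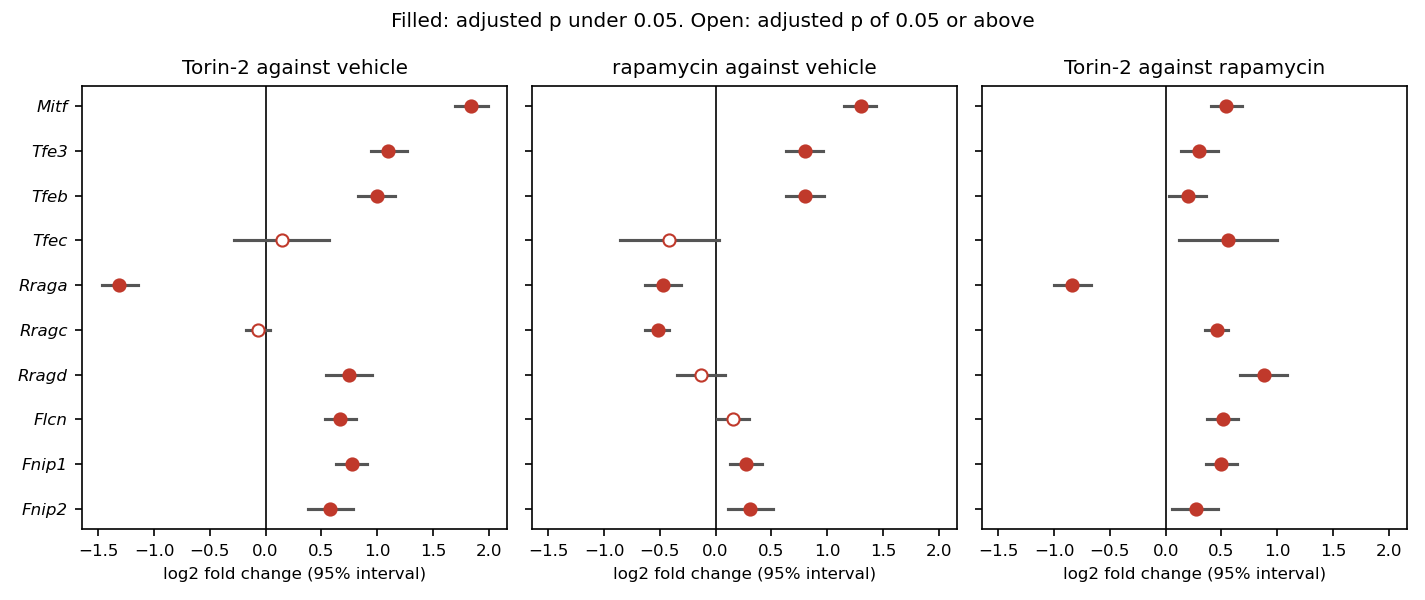
Log2 fold change of each gene with its 95% confidence interval in the 3 comparisons, from the edgeR fit over 9 libraries; filled points passed an adjusted p under 0.05. Mitf lies farthest above 0 and Rraga farthest below 0 for Torin-2 against vehicle.

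The Rag subunits moved apart. Rraga, which encodes RagA, the partner of RagC or RagD in the heterodimer, had 54.3, 60.8 and 51.2 CPM with Torin-2, 90.6, 101 and 106 CPM with rapamycin, and 138, 133 and 139 CPM with vehicle. The groups were fully separate, lowest with Torin-2 and highest with vehicle. Rraga fell by 1.31 ± 0.07 on the log2 scale with Torin-2, to 0.405 of the vehicle level (adjusted p = 3.06e-08, edgeR), and by 0.47 ± 0.07 with rapamycin (adjusted p = 0.000249, edgeR). It was lower with Torin-2 than with rapamycin by a log2 difference of -0.84 ± 0.07 (adjusted p = 3.75e-06, edgeR). The RagB gene Rragb, which could take the place of RagA in the dimer, was too low to test, at 5, 5 and 6 counts with Torin-2, 1, 5 and 6 with rapamycin and 6, 9 and 5 with vehicle.

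Rragc, which encodes RagC, had 401, 425 and 398 CPM with Torin-2, 289, 298 and 306 CPM with rapamycin, and 431, 432 and 421 CPM with vehicle. Rapamycin lay below the other groups, which overlapped each other. Rragc fell by 0.52 ± 0.05 on the log2 scale with rapamycin (adjusted p = 6.87e-06, edgeR). With Torin-2 the log2 difference from vehicle was -0.07 (95% interval -0.18 to 0.04, adjusted p = 0.236, edgeR), and Torin-2 exceeded rapamycin by 0.46 ± 0.05 (adjusted p = 1.7e-05, edgeR). An exon of Rragc overlaps the opposite-strand gene 4930535I16Rik, which averaged 0.689 CPM with Torin-2, 0.270 CPM with rapamycin and 0.522 CPM with vehicle, and strand use in counting was not given in the sources used here.

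Rragd, the RagC paralogue and a known MiT/TFE target, had 35.9, 42.2 and 37.0 CPM with Torin-2, 18.0, 21.8 and 22.7 CPM with rapamycin, and 22.1, 23.8 and 22.8 CPM with vehicle. Torin-2 stood above the other groups, which overlapped. Rragd rose 1.68-fold with Torin-2 relative to vehicle (log2 0.75 ± 0.10, adjusted p = 2.43e-05, edgeR) and was 1.84-fold higher with Torin-2 than with rapamycin (log2 0.88 ± 0.10, adjusted p = 1.8e-05, edgeR). With rapamycin the log2 difference from vehicle was -0.13 (95% interval -0.35 to 0.08, adjusted p = 0.283, edgeR).

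The folliculin complex rose with Torin-2 in all 3 of its genes. Flcn, the tumour suppressor of Birt-Hogg-Dubé syndrome, had 47.6, 50.6 and 46.9 CPM with Torin-2, 33.1, 34.2 and 34.3 CPM with rapamycin, and 28.6, 31.9 and 30.9 CPM with vehicle. The groups did not overlap, although rapamycin replicate 1 was close to vehicle replicate 2. Flcn rose 1.59-fold with Torin-2 (log2 0.67 ± 0.06, adjusted p = 2.29e-06, edgeR) and stood 1.43-fold above rapamycin (log2 0.51 ± 0.06, adjusted p = 5.02e-05, edgeR). With rapamycin the log2 difference from vehicle was 0.16 (95% interval 0.01 to 0.30, adjusted p = 0.0667, edgeR), which passed once the replicate number was a block (adjusted p = 0.044, edgeR).

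Fnip1, a partner through which folliculin reaches the Rag GTPases, had 168, 168 and 172 CPM with Torin-2, 114, 112 and 133 CPM with rapamycin, and 102, 98.0 and 97.0 CPM with vehicle. These ranges did not overlap in any pair of groups. It rose 1.70-fold with Torin-2 (log2 0.77 ± 0.07, adjusted p = 7.98e-07, edgeR) and 1.21-fold with rapamycin (log2 0.27 ± 0.07, adjusted p = 0.00471, edgeR). Torin-2 exceeded rapamycin by 0.50 ± 0.07 on the log2 scale (adjusted p = 6.84e-05, edgeR).

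Fnip2, the other folliculin partner, had 658, 640 and 677 CPM with Torin-2, 569, 486 and 587 CPM with rapamycin, and 453, 380 and 489 CPM with vehicle. Replicate 2 was the lowest library in each group, and rapamycin replicate 2 lay inside the vehicle range. Fnip2 rose 1.49-fold with Torin-2 (log2 0.58 ± 0.09, adjusted p = 0.000152, edgeR) and 1.24-fold with rapamycin (log2 0.31 ± 0.09, adjusted p = 0.0143, edgeR). The rapamycin call was lost without rapamycin replicate 1 (0.0503) or 3 (0.0526). Torin-2 exceeded rapamycin by 0.27 ± 0.09 (adjusted p = 0.0318, edgeR), a call lost without rapamycin replicate 2 (log2 0.19, adjusted p = 0.131, edgeR) or any Torin-2 replicate (0.0598 to 0.0907). These refits held no block on the replicate number. With that block and all libraries, the adjusted p was 0.000481 for rapamycin against vehicle and 0.00146 for Torin-2 against rapamycin (edgeR). 

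In all, the libraries of Torin-2 and vehicle did not overlap for 9 of the 10 genes, against 70.2% of all genes tested. Of these, 8 were higher with Torin-2 (background 35.1%) and 1 was lower (background 35.1%). Between rapamycin and vehicle 7 genes did not overlap, against 57.5% of all genes, 5 being higher with rapamycin (background 27.8%) and 2 lower (29.7%). Between Torin-2 and rapamycin 10 did not overlap, against 57.2%, 9 being higher with Torin-2 (28.9%) and 1 lower (28.2%).

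To compare levels between genes, counts were divided by exon length and rescaled to a sum of 1000000 in each library (TPM). In Torin-2 macrophages Rragc came first at 372 ± 14.4 TPM (SD, n = 3), then Fnip2 at 239 ± 5.78, Rraga at 104 ± 9.63, Fnip1 at 72.2 ± 0.602 and Mitf at 55.6 ± 1.13 TPM. Flcn at 34.1 ± 1.47, Tfe3 at 32.5 ± 1.54 and Tfeb at 30.3 ± 1.68 TPM followed, with neighbours in overlapping ranges, and Rragd at 22.6 ± 2.03 and Tfec at 5.14 ± 0.275 TPM were last. Rapamycin macrophages had Rragc at 255 ± 16.1, Fnip2 at 188 ± 27.9 and Rraga at 175 ± 15.9 TPM, the last 2 overlapping, then Fnip1 at 48.2 ± 6.53 and Mitf at 36.0 ± 4.12 TPM. Below them Tfeb at 25.0 ± 2.65, Tfe3 at 24.9 ± 2.91 and Flcn at 22.5 ± 1.13 TPM could not be ordered, above Rragd at 11.5 ± 1.40 and Tfec at 3.25 ± 1.25 TPM. In vehicle macrophages Rraga ranked second, at 261 ± 9.73 TPM between Rragc at 395 ± 9.59 and Fnip2 at 162 ± 21.9 TPM. Fnip1 at 42.9 ± 1.98 and Flcn at 21.7 ± 0.815 TPM came next, Mitf at 15.7 ± 1.18, Tfeb at 15.4 ± 1.35 and Tfe3 at 15.3 ± 1.24 TPM overlapped, and Rragd at 13.6 ± 0.304 and Tfec at 4.70 ± 0.120 TPM were lowest. With this length, the ranges of Mitf, Tfe3 and Tfeb thus overlapped in the vehicle group, while Mitf stood above the other factors with either inhibitor. This order depends on the exon length used. With the longest transcript as the length, Tfeb ranked first among the factors in each group, vehicle included.

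**Figure D3:**
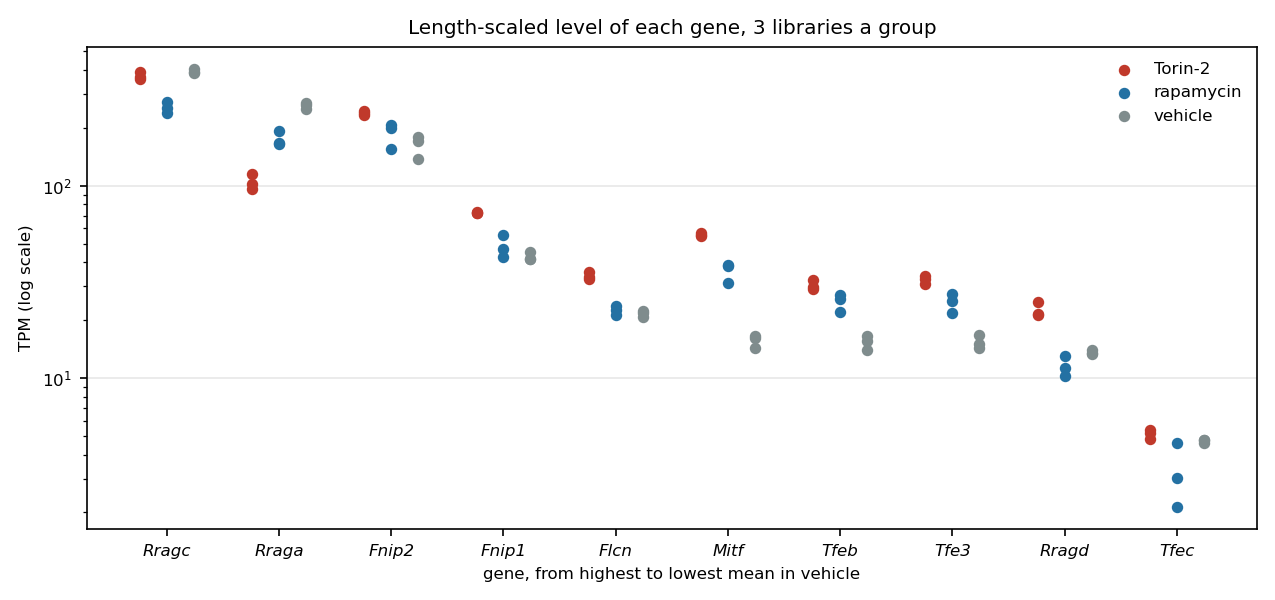
TPM of the 10 genes on a log axis, with Torin-2, rapamycin and vehicle from left to right; points are libraries and genes are ordered by their vehicle mean. Rragc is the most abundant in every group and Tfec the least.

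The summed level of the 4 factors was 123, 125 and 124 TPM with Torin-2, 95.3, 78.0 and 93.9 TPM with rapamycin, and 51.9, 47.4 and 54.0 TPM with vehicle. Both inhibitor groups were above all vehicle libraries. Mitf made up 45.0% ± 1.29 of this sum with Torin-2, 40.4% ± 0.306 with rapamycin and 30.7% ± 1.13 with vehicle (SD, n = 3 each), with no overlap between groups. The share of Tfeb was 24.5% ± 1.21 with Torin-2, 28.1% ± 0.458 with rapamycin and 30.1% ± 0.682 with vehicle, that of Tfe3 26.3% ± 1.11, 27.9% ± 0.978 and 30.0% ± 1.02 in the same order, and that of Tfec 4.16% ± 0.244, 3.67% ± 1.34 and 9.24% ± 0.797. These shares depend on the length given to each gene. With the longest transcript in place of all exons, Mitf held 35.3% with Torin-2, 30.9% with rapamycin and 22.8% with vehicle, and Tfeb ranked first in each group at 36.7%, 40.9% and 42.6%. Rragd was 5.72% ± 0.286 of the summed Rragc and Rragd TPM with Torin-2, 4.31% ± 0.394 with rapamycin and 3.34% ± 0.124 with vehicle. The summed TPM of the pair was 394 ± 16.3 with Torin-2, 267 ± 17.1 with rapamycin and 408 ± 9.47 with vehicle, so the share rests on a lower sum with rapamycin. Fnip2 made up 76.8% ± 0.310, 79.5% ± 1.23 and 79.0% ± 2.19 of the summed Fnip1 and Fnip2 TPM with Torin-2, rapamycin and vehicle.

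**Figure D4:**
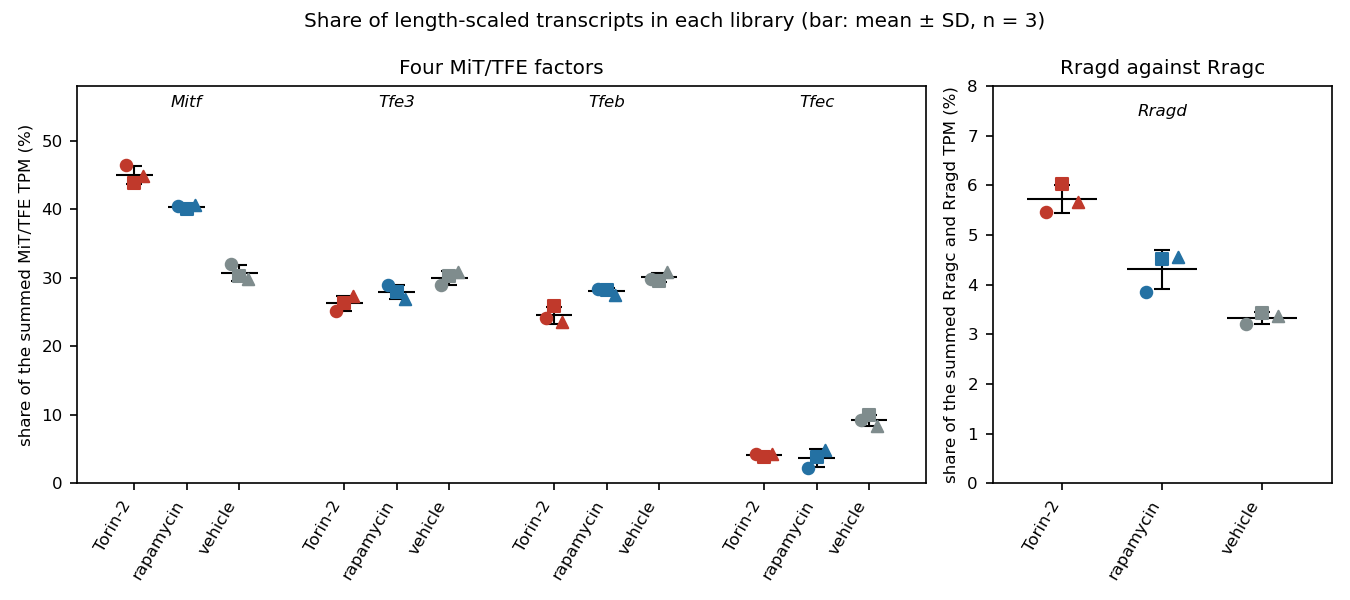
Share of each factor in the summed MiT/TFE TPM (left) and of Rragd in the summed Rragc and Rragd TPM (right), in percent, for Torin-2, rapamycin and vehicle from left to right; points are libraries and bars the mean ± SD of 3. Mitf and Rragd take their highest shares with Torin-2.

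By annotation (GRCm38, GENCODE M21), Mitf (ENSMUSG00000035158, chr6:97807052-98021349) and Tfec (ENSMUSG00000029553, chr6:16833373-16898441, minus strand) lie on 1 chromosome. Tfe3 (ENSMUSG00000000134) is at chrX:7762560-7775202, and Tfeb (ENSMUSG00000023990) is at chr17:47737030-47792419. The 3 Rag genes share chromosome 4, with Rraga (ENSMUSG00000070934) at chr4:86575668-86577285, Rragc (ENSMUSG00000028646) at chr4:123917446-123936997 and Rragd (ENSMUSG00000028278) at chr4:32983037-33022180. Flcn (ENSMUSG00000032633, chr11:59791408-59810016, minus strand) and Fnip1 (ENSMUSG00000035992, chr11:54438199-54518235) are both on chromosome 11, and Fnip2 (ENSMUSG00000061175, chr3:79455974-79567796, minus strand) is on chromosome 3. No stretch of 100 bases, the read length, was shared between the transcripts of 9 of these genes and those of other genes, and Rragc shared 5.04% of its stretches, with 4930535I16Rik.

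Because MiT/TFE factors bind E-boxes, the promoters were searched on both strands for CACGTG, in RefSeq windows from 250 bases before to 50 after each start (GRCm38.p6, 300 bases, 15 windows for all 10 genes). The motif was in windows of Rragc and Fnip1 alone among the 10 genes, and in 7.15% of 32851 windows of all genes. Both are shown with the motif in capitals, since they are the only matches. In Rragc the E-box began 112 bases before the start, and in Fnip1 75 bases before it. In each it also met the longer form TCACGTG or CACGTGA, which contains CACGTG and was in 3.77% of all windows. The full CLEAR element, which is CACGTG with GT before it and AC after it, was in no window of the 10 genes and in 0.326% of all windows. Neither form of the M-box, TCATGTG or CACATGA, which overlaps none of these motifs, was in any window of the 10 genes (3.77% of all windows). Rragc did not pass the test with Torin-2 and fell with rapamycin, while Fnip1 rose with both inhibitors, and a match describes these letters only.
Rragc promoter, chr4:123917183-123917482, plus strand: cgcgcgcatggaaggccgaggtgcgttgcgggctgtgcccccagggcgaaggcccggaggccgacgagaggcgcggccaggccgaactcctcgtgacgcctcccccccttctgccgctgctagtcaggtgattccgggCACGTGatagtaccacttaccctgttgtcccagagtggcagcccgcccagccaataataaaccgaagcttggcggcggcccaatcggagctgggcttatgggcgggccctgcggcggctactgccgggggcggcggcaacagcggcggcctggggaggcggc
Fnip1 promoter, chr11:54437929-54438228, plus strand: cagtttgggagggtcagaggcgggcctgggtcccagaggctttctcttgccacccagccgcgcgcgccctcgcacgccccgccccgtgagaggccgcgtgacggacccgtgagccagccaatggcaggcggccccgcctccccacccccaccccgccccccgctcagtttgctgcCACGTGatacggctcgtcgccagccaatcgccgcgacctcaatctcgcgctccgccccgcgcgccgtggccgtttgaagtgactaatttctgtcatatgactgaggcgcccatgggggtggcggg

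The counts of 3 gene lists are read beside the shares of all genes tested, of which 32.5% rose and 32.9% fell with Torin-2 against vehicle, 24.6% rose and 26.2% fell with rapamycin against vehicle, and 24.2% were higher and 24.1% lower with Torin-2 than with rapamycin. Of 32 listed genes that act with the Rag GTPases in nutrient sensing, 30 were tested. With Torin-2 8 rose (26.7% of those tested) and 13 fell (43.3%) relative to vehicle, with a median log2 fold change of -0.13. With rapamycin 4 rose (13.3%) and 8 fell (26.7%), with a median of -0.02, and under scaling by library totals 1 rose and 9 fell, with a median of -0.11. Between Torin-2 and rapamycin 5 were higher (16.7%) and 11 lower (36.7%), with a median of -0.15. Among those that rose with Torin-2, Map4k3, an amino-acid-responsive kinase upstream of mTORC1, averaged 188 CPM with Torin-2, 193 CPM with rapamycin and 66.3 CPM with vehicle (log2 1.51 ± 0.06 and 1.54 ± 0.06 against vehicle, adjusted p = 1e-09 and 1.35e-08, edgeR). Mlst8, a subunit of both mTOR complexes, averaged 25.9 CPM with Torin-2, 10.8 CPM with rapamycin and 11.5 CPM with vehicle (log2 1.17 ± 0.12 for Torin-2 against vehicle, adjusted p = 2.67e-06, edgeR), and Seh1l, a GATOR2 and nuclear pore protein, averaged 68.8, 53.0 and 45.4 CPM in the same order. Of those that fell, Castor2, of the CASTOR arginine-sensor family and listed in the table as Gatsl2, averaged 5.59 CPM with Torin-2, 23.4 CPM with rapamycin and 37.8 CPM with vehicle (log2 -2.76 ± 0.12 for Torin-2 against vehicle, adjusted p = 3.59e-09, edgeR). Sec13, shared by GATOR2 and the COPII vesicle coat, averaged 40.5, 120 and 211 CPM in that order (log2 -2.38 ± 0.06, adjusted p = 1.38e-10, edgeR), and Sesn3, a sestrin that restrains mTORC1 through GATOR2, averaged 3.74, 6.11 and 20.2 CPM. The Ragulator genes Lamtor1 to Lamtor5, whose products anchor the Rag dimer to the lysosome, were singled out after their values were seen. With Torin-2 4 of the 5 fell and 0 rose relative to vehicle, and with rapamycin 3 fell and 1 rose, or 0 rose under scaling by library totals. Beside them, 32.9% of all genes tested fell with Torin-2 and 26.2% with rapamycin. Because the Ragulator genes were picked by their values, these counts test nothing.

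Genes that set where the factors reside numbered 22, all tested. With Torin-2 7 rose (31.8%, near the share of all genes) and 10 fell (45.5%) relative to vehicle, with a median log2 fold change of -0.08. With rapamycin 7 rose (31.8%) and 5 fell (22.7%), with a median of 0.06, and between Torin-2 and rapamycin 3 were higher (13.6%) and 11 lower (50%), with a median of -0.15. Gabarapl1, an ATG8 protein of autophagosomes, averaged 292 CPM with Torin-2, 219 CPM with rapamycin and 113 CPM with vehicle (log2 1.37 ± 0.08 and 0.95 ± 0.08 against vehicle, adjusted p = 2.56e-08 and 1.97e-06, edgeR). The kinase genes Prkcd (205 CPM with Torin-2, 197 CPM with rapamycin, 143 CPM with vehicle) and Mapk3 (407, 425 and 291 CPM in the same order) rose with both inhibitors. Mcoln1, the lysosomal calcium channel that activates the phosphatase calcineurin, averaged 98.5, 79.2 and 76.1 CPM, and rose with Torin-2 (log2 0.37 ± 0.06, adjusted p = 0.000142, edgeR), while the log2 difference with rapamycin was 0.06 ± 0.06 (adjusted p = 0.447, edgeR). The exportin Xpo1, which carries TFEB out of the nucleus, averaged 81.9, 126 and 133 CPM and fell with Torin-2 by 0.70 ± 0.07 on the log2 scale (adjusted p = 5.02e-06, edgeR). The 14-3-3 genes, which were grouped after their values were seen, fell with Torin-2 relative to vehicle in 6 of 6 (Ywhab, Ywhae, Ywhag, Ywhah, Ywhaq and Ywhaz), while with rapamycin 1 rose and 2 fell. Of all genes tested 32.9% fell with Torin-2, and with rapamycin 24.6% rose and 26.2% fell. Since the group was picked by its values, its counts test nothing. Ywhab averaged 162 CPM with Torin-2, 232 CPM with rapamycin and 331 CPM with vehicle, and Ywhah averaged 186, 358 and 342 CPM in the same order.

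Of 46 listed lysosomal and autophagy genes known as MiT/TFE targets, 45 were tested. Relative to vehicle 19 rose (42.2%) and 12 fell (26.7%) with Torin-2, with a median log2 fold change of 0.13. With rapamycin 14 rose (31.1%) and 11 fell (24.4%), with a median of 0.02, the falls being near the share of all genes. With Torin-2 12 were higher (26.7%) and 16 lower (35.6%) than with rapamycin, with a median of -0.04. The list also holds Gabarapl1 and Mcoln1. Ulk1, the kinase that starts autophagy, averaged 47.6 CPM with Torin-2, 42.6 CPM with rapamycin and 19.9 CPM with vehicle (log2 1.26 ± 0.10 and 1.09 ± 0.10 against vehicle, adjusted p = 5.37e-07 and 6.72e-06, edgeR). The cathepsin gene Ctsf averaged 10.3, 6.03 and 3.45 CPM in the same order and rose with both. Among the genes that fell with Torin-2, Atp6v1h, a subunit of the proton pump of lysosomes, averaged 138 CPM with Torin-2, 172 CPM with rapamycin and 251 CPM with vehicle (log2 -0.87 ± 0.08, adjusted p = 9.57e-07, edgeR). Sgsh, a lysosomal sulfatase that degrades heparan sulfate, averaged 53.5, 83.6 and 92.7 CPM, and Hif1a, the hypoxia factor, averaged 109, 133 and 198 CPM. Exons of Gabarapl1, Sgsh, Hif1a, Ywhaq and Lamtor1 overlap those of tested genes on the opposite strand. Under scaling by library totals, which moves the median of all genes by -0.10 for rapamycin against vehicle, the medians of the localisation list and of this list turned to -0.03 and -0.08 for that comparison, with 5 rising and 6 falling and with 10 rising and 16 falling. For Torin-2 against rapamycin it shifts the median of all genes by 0.07, and the median of the lysosomal list was then 0.03, with 14 higher and 13 lower.

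**Figure D5:**
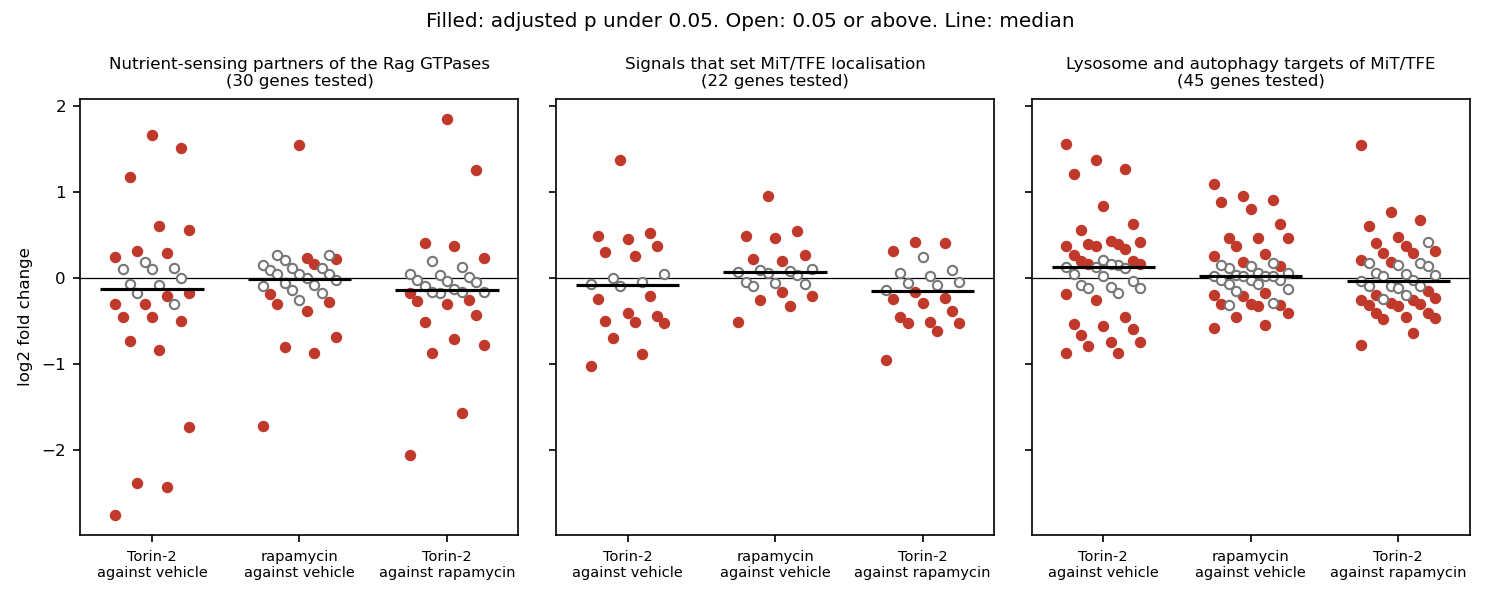
Log2 fold change of each tested gene of the 3 lists (vertical axis) in the 3 comparisons; filled points passed an adjusted p under 0.05 (edgeR), open points did not, and the line is the median. Every list holds genes on both sides of 0 in every comparison.

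Genes whose profiles were nearest to those of the 10 genes were found by the root mean square distance between log2(CPM + 1) values, each centred on its own mean over the 9 libraries, a description that follows the 3 treatments. Mitf lay nearest to Zfp36l2 (distance 0.0524), Sun2 (0.0711) and Fbxl20 (0.0737). Flcn lay nearest to Sfr1 (0.0359), and Rraga to Arl1 (0.0549), Gorasp2 (0.0577) and Spcs2 (0.0610). Rragc was nearest to Klhl22 (0.0523) and Rragd to Pdrg1 (0.0660). Within the 10 genes the nearest pair was Tfe3 and Tfeb at 0.0746, followed by Flcn and Fnip1 at 0.101, and the farthest was Mitf and Rraga at 1.28.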

How the data were processed

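mRNA sequencing libraries came from 9 macrophage cultures. The authors deposited raw counts of reads per gene, and STAR 2.5.2a and the builds mm10 and GRCm38.p6 are named, per the submitters' processing notes. The counting tool and its use of strand were not given in the sources used here. No column of the table was left out. Counts of genes with enough reads (edgeR filterByExpr, 12511 genes) were normalised by TMM and fitted with edgeR 4.0.16 (R 4.3.3) in 1 quasi-likelihood model of 3 groups, with 2-sided tests of 3 contrasts, Benjamini-Hochberg adjustment over all genes tested and a threshold of 0.05. CPM used TMM library sizes, and TPM used the summed exon length in GENCODE M21, which holds 53237 of the 53342 identifiers. DESeq2 1.42.0 was an alternative. The model was tested on simulated data with known changes.

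The labels state that replicates came from different animals. Deviations of same-numbered libraries from their group means correlated at 0.168 to 0.50 (Pearson, across genes, 9 pairs), against -0.358 to 0.162 for 18 pairs with different numbers, so the numbers were taken to pair the samples and the fit with a block on them was an alternative. The p-values in the text, and those with libraries left out, come from fits without this block unless the block is named. Genes named from the lists are up to 3 that rose and 3 that fell most with Torin-2, at a mean of at least 5 CPM, and the 3 nearest profiles per gene were ranked among genes at that level. Mcoln1, the 14-3-3 genes, the Ragulator genes and the further marker genes were named after their values were seen. The 10 genes and the lists were chosen with earlier results of these data known.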

Additional observations from a re-analysis of the deposited data

How the results depend on the processing

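Each comparison was repeated under 16 alternatives: library totals, RLE size factors, DESeq2, no filter on low counts, only the 2 groups compared, a replicate block, replicate 3 of every group left out, and each library left out in turn. Of 30 combinations of gene and comparison, 24 kept their call under all alternatives and 6 did not, and none reversed. For Torin-2 against vehicle 8 of the 10 genes passed throughout, for rapamycin against vehicle 6 to 8, and for Torin-2 against rapamycin 7 to 10. Tfec passed for rapamycin against vehicle with library totals (0.049), with no low-count filter (0.031) and with replicate 3 of every group left out (0.00955). Genes passing numbered 8182 for Torin-2 against vehicle (7511 to 8713), 6351 for rapamycin against vehicle (5457 to 7003) and 6035 for Torin-2 against rapamycin (5168 to 6831). With the replicate block 8713, 7003 and 6831 genes and 8, 8 and 10 of the 10 genes passed, and it changed no call of the 10 genes other than that of Flcn for rapamycin against vehicle. For rapamycin against vehicle 48.5% of calls were higher by TMM (3078 higher, 3273 lower), against 37.4% by library totals (2421 higher, 4046 lower), and for Torin-2 against rapamycin 50.1% by TMM (3025 higher, 3010 lower), against 59.7% by library totals (3635 higher, 2456 lower). The 3 libraries per group and the low counts of Tfec limit what small differences can show.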

Other observations

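Several osteoclast genes are known MITF or TFE3 targets in that cell. Whether these factors had a part in the values below was not tested. Of 8 tested osteoclast markers 6 rose (75%, against 32.5% of all genes tested) and 1 fell (12.5%, against 32.9%) with Torin-2 relative to vehicle. With rapamycin 3 rose (37.5%, against 24.6%) and 4 fell (50%, against 26.2%), and with Torin-2 5 were higher (62.5%, against 24.2%) and 2 lower (25%, against 24.1%) than with rapamycin. A list of 8 genes is small, and Calcr and Oscar had no counts. Atp6v0d2, a subunit of the proton pump that osteoclasts use, averaged 958 ± 21.1 CPM with Torin-2, 330 ± 57.3 CPM with rapamycin and 413 ± 72.5 CPM with vehicle (SD, n = 3 each). It rose with Torin-2 (log2 1.21 ± 0.13, adjusted p = 6.92e-06, edgeR), and with rapamycin the log2 difference was -0.32 ± 0.13 (adjusted p = 0.0598). The integrin gene Itgb3 averaged 64.8 CPM with Torin-2, 17.1 CPM with rapamycin and 30.7 CPM with vehicle, rising with Torin-2 and falling with rapamycin. The gelatinase gene Mmp9 averaged 46.6, 22.4 and 6.37 CPM in the same order and rose with both inhibitors. Acp5, the tartrate-resistant phosphatase that marks osteoclasts, averaged 6.52 CPM with Torin-2, 12.9 CPM with rapamycin and 25.5 CPM with vehicle and fell with both. Gpnmb, a lysosomal glycoprotein and MITF target, averaged 25300 CPM with Torin-2, 15900 CPM with rapamycin and 20000 CPM with vehicle, rising with Torin-2 (log2 0.34 ± 0.12, adjusted p = 0.0231, edgeR) and falling with rapamycin (log2 -0.33 ± 0.12, adjusted p = 0.0336, edgeR). Gpnmb, Ocstamp, Ctsk, Nfatc1, Clcn7, Calcr and Oscar were named after their values were seen.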
